A study of Mus musculus with 12 samples.

Results

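Genes of the cell division cycle and of DNA replication were followed in mouse spinal cord: 37 genes were listed by their function, and 36 of them had at least 1 probe set (a group of short probes for 1 transcript) with a single gene symbol on the array. Ccnb1 had none and was not measured here. A gene was represented by its brightest probe set, the one with the highest mean log2(signal + 16) over the arrays, chosen from 73 probe sets for the 36 genes. The array as a whole covered 12393 genes with such a probe set. The list falls into 5 role classes: G1 cyclins and kinases (6 genes measured), replication licensing and fork proteins (8), nucleotide supply (3), S to M cyclins and their kinase (4), and mitotic spindle, checkpoint and exit proteins (15).

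Spinal muscular atrophy (SMA) destroys motor neurons when too little SMN protein is made. Each of 12 arrays held the RNA of 1 mouse cord, taken at an age of 13 days, in 3 groups of 4 mice. All mice came from 1 SMA line on an FVB.Cg background and carried the human SMN2 transgene and the SmnΔ7 transgene on both alleles. The group labelled wildtype had the genotype mSmn+/−, that is 1 disrupted mouse Smn allele, and received vehicle. Both SMA groups lacked intact mouse Smn (mSmn −/−). One SMA group received vehicle and the other ceftriaxone, a beta-lactam antibiotic, injected at 200 mg/kg daily from day 5 of life. The submitters speak both of whole cords and of lumbar segments, and of perfusion with fixative, and the sex of each mouse is not stated. The transgenes and the Smn disruption are present in every cell, so no cell type was singled out by the design. The targeted gene, Smn1, had a signal of 263 to 414 on wildtype arrays and of 3.3 to 15.8 on SMA arrays, so every array matched its labelled genotype.

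As background, a cell enters division when D cyclins with Cdk4 and E cyclins with Cdk2 release E2F transcription factors from the retinoblastoma protein, and E2F then drives the genes for DNA synthesis. The MCM2 to MCM7 proteins form the helicase that opens origins, ribonucleotide reductase supplies deoxynucleotides, and Cdk1 with cyclins A and B takes the cell into mitosis, where spindle and checkpoint proteins act. In the second postnatal week most spinal neurons have left the cycle, and dividing cells are chiefly glial precursors, endothelium and microglia. In RNA of a whole tissue, fewer cells of a type and less RNA per cell cannot be told apart.

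Promoter sequences are shown for 6 members because the letters of E2F, CCAAT and CHR sites are the known control motifs of these classes of genes. They are the stretches that end at the annotated start of the gene, 5′ to 3′ on the coding strand (plus for Prim1 and Rrm1, minus for the others), from the RefSeq promoter table of build GRCm38.p6, with motif letters in capitals. Motifs were searched on both strands and were allowed to overlap. The E2F core was taken as TTCCCGC (present in Prim1 and Rrm1), TTGGCGC (present in Mcm6 and Mki67), TTCGCGC (present in Mcm6 and Cdk1) or, as a further form, TTGCCGC. The CCAAT box was searched by the letters of its name. The cell cycle homology region, CHR, a binding site of the DREAM and MuvB complexes, was taken as TTTGAA (present in Cdk1 and Mki67) or, as in Top2a, TTCGAA. Adjacent capitals can hold 2 overlapping motifs, as in Prim1, where an E2F core and a CCAAT box share a base.
Prim1, chr10:128015155-128015214: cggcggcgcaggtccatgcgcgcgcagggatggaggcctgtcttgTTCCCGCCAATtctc
Mcm6, chr1:128359706-128359825: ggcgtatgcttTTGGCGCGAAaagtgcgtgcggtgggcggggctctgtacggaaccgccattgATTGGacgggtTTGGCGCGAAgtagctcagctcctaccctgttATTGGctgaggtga
Rrm1, chr7:102441575-102441694: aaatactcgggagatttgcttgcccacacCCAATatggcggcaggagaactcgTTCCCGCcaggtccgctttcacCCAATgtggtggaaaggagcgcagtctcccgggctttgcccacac
Cdk1, chr10:69352913-69353052: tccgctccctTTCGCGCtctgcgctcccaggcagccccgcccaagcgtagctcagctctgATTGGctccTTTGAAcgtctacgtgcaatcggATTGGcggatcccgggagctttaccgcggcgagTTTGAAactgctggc
Mki67, chr7:135716380-135716499: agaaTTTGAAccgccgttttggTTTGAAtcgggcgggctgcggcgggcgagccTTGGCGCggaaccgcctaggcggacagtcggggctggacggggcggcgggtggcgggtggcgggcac
Top2a, chr11:99024190-99024339: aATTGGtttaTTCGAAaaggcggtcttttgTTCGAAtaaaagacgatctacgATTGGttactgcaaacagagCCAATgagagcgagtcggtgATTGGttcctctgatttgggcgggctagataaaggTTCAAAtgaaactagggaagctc
Prim1, Mcm6 and Rrm1 show E2F cores and CCAAT boxes and no CHR in these stretches, Top2a shows CCAAT boxes and CHR letters and no E2F core, and Mki67 CHR letters and an E2F core. Cdk1 holds all 3 motifs.

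A promoter window of 300 bases (250 before the start and 50 after) was found for 31 of the 37 genes; Aurkb, Ccna2, Ccnd1, Ccnd2, Ccne2 and Mcm4 had no entry. The E2F core stood in 11 of the 31 windows (35.5%), against 9.69% of 27025 windows of all genes. It was held by 5 of 7 replication genes and by 1 of 14 mitotic genes, Mki67. The CHR stood in 15 of 31 windows (48.4%), against 19.4% of all windows. It was held by 11 of 14 mitotic genes and by 2 of 7 replication genes. The CCAAT box stood in 25 of 31 windows (80.6%), against 37.9% of all windows, and in all 7 replication windows. These are counts of letters in a window, and they carry no test.

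One array bears on most values that involve the wildtype group. Wildtype array 2 was the highest of the 12 arrays for 35 of 36 members, the exception being Ccnd1. The ratio of its signal to the mean of the other 3 wildtype arrays ran from 0.892 to 13.4, with a median of 7.20, and was over 4 for 26 members. Over all probe sets kept for testing, 1.46% had a ratio over 4 and the median ratio was 0.946. The same array carried transcripts of thymocytes, immature and often dividing immune cells of the thymus: the summed signal of the 16 thymocyte markers with a probe set was 56663 on it and 2950.0 to 4478 on the other 11 arrays. Rag1, which cuts antigen receptor genes and defines lymphocyte precursors, had a signal of 7863 there and of 0.5 to 129.9 on the other arrays. Ceftriaxone array 2 gave the highest of these other values for both, 129.9 and 4478. The part of thymocyte transcripts in the members' values was not tested. The counts of members, their medians and the members described in full are therefore given with all 12 arrays and without wildtype array 2. Marker counts and other differences from wildtype are without that array unless stated. With all arrays, 29 of the 36 members had a negative difference in SMA vehicle cords.

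**Figure D1:**
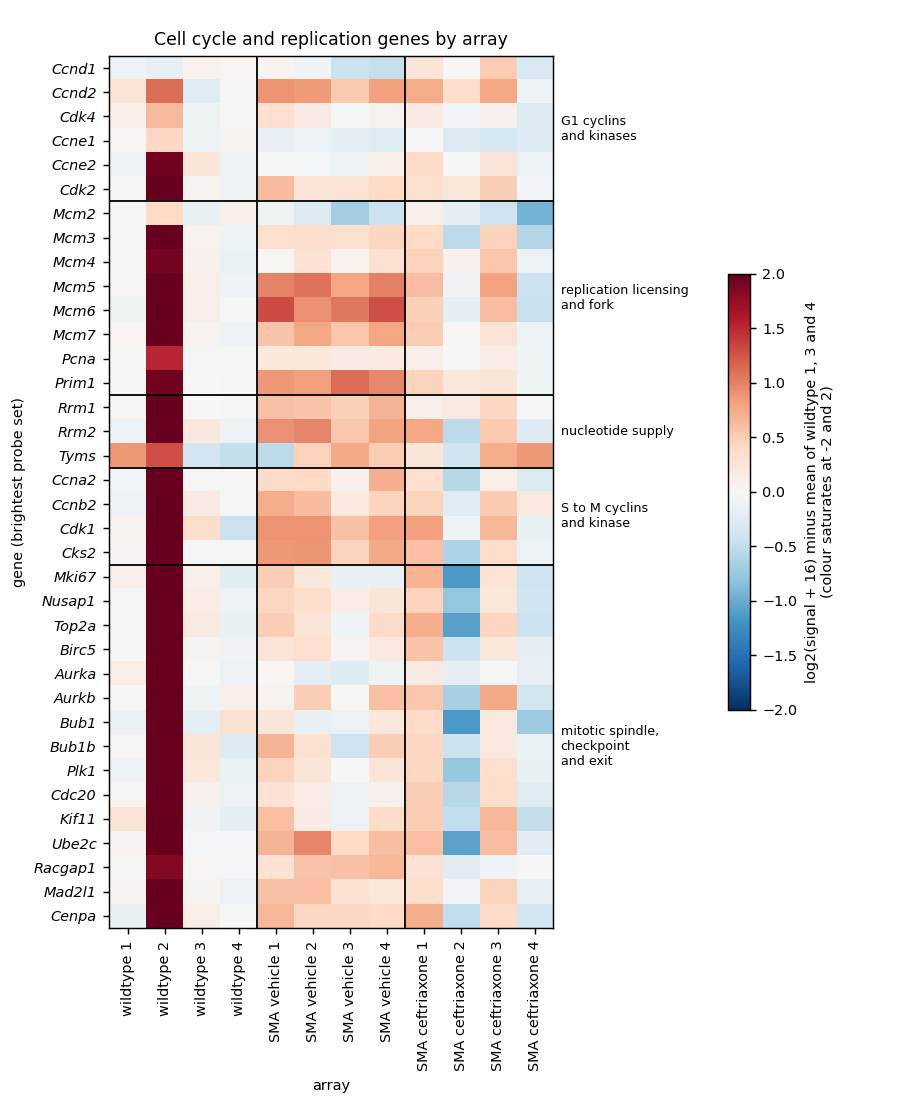
Colour shows log2(signal + 16) of each measured gene (rows, by role class) on each array (columns, by group) minus the mean of wildtype arrays 1, 3 and 4. The column of wildtype array 2 stands far above all others in most rows, SMA vehicle columns are mostly above 0, and ceftriaxone arrays 1 and 3 lie above arrays 2 and 4.

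The first comparison, SMA vehicle against wildtype, asks how loss of mouse Smn goes with these transcripts. With all 12 arrays, 0 of the 30 members that passed the filter on low signal (mean log2 above the 40th percentile, a signal of about 125) were called by limma at a Benjamini-Hochberg adjusted p under 0.05, and 2 had an unadjusted p under 0.05. Among all 13575 probe sets tested, 24.9% were called higher and 22.3% lower in that fit. Once wildtype array 2 was left out, 14 of the same 30 members were called higher in SMA vehicle cords, 0 lower, and 16 did not pass. The background in that fit was 31.0% of probe sets called higher and 27.5% called lower. Leaving out wildtype array 4 as well left 9 members called higher. The share of all probe sets called in that further fit is not given here. The median log2 difference over all 36 members was −0.27 with all arrays and 0.30 without wildtype array 2, beside medians of −0.018 and 0.004 over all 22626 probe sets. In the fit lacking that array 31 members had a positive difference, and in 20 every vehicle array lay above every wildtype array, against 23.5% of all probe sets. Ccne1 was the 1 member with all vehicle arrays below all wildtype arrays, against 21.1% of all probe sets. With all arrays, vehicle stood wholly above wildtype in 0 members and wholly below in 1, against 16.4% and 14.8%.

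**Figure D2:**
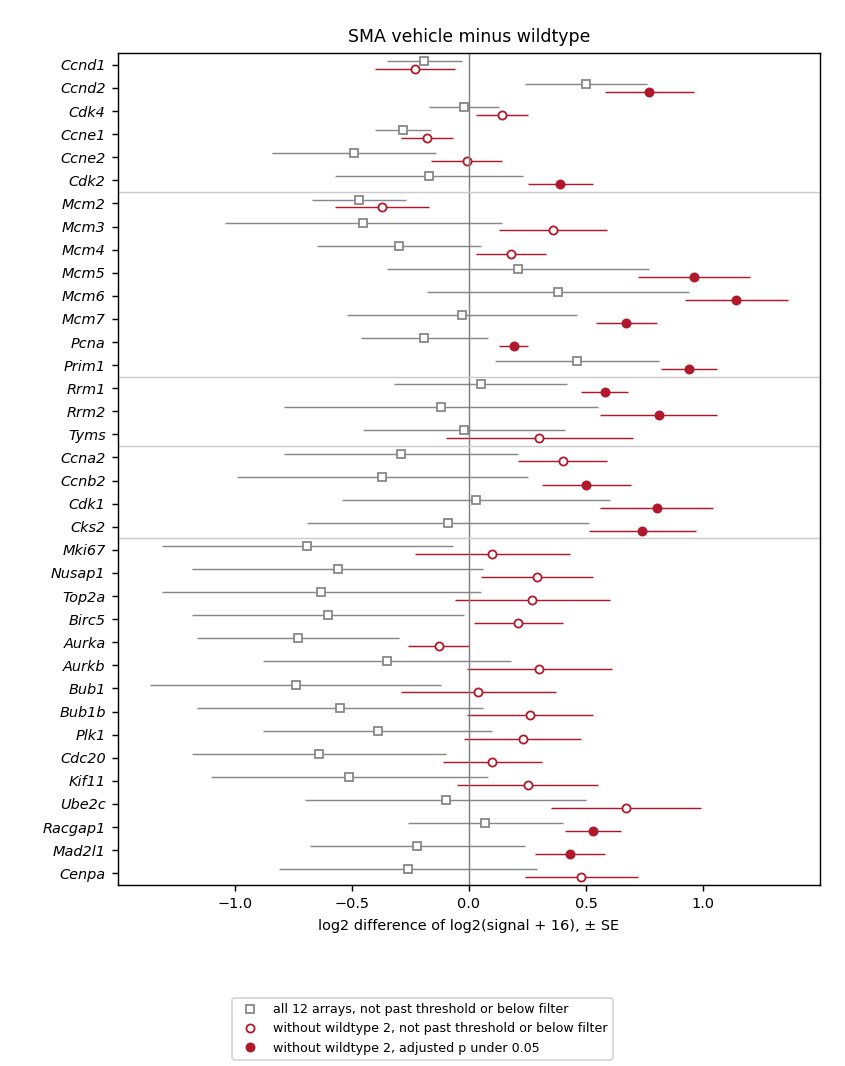
Log2 difference (SMA vehicle minus wildtype, of log2(signal + 16)) with its standard error for the 36 measured genes, by role class. Grey squares use all 12 arrays and red circles leave out wildtype array 2; filled symbols have an adjusted p under 0.05, which 14 genes reached without that array and 0 with it.

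Among replication licensing and fork proteins, 5 of 8 tested members rose in SMA vehicle cords without wildtype array 2, against 31.0% of all tested probe sets. The median difference of the class was 0.52 in that fit and −0.11 with all arrays, where 0 of 8 were called. Prim1, the catalytic subunit of DNA primase, had the smallest p in that fit. Its signal was 301, 1178, 296 and 292 on wildtype arrays 1 to 4, 556, 537, 659 and 596 on vehicle arrays 1 to 4, and 409, 344, 356 and 278 on ceftriaxone arrays 1 to 4. Every vehicle array lay above every wildtype array but the second. The log2 difference was 0.46 ± 0.35 (SE, limma adjusted p = 0.294) with all arrays and 0.94 ± 0.12 (adjusted p = 1.87e-05) without wildtype array 2. Its other probe set gave 0.76, also called.

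Mcm6, a subunit of the replicative helicase, had the largest difference of the 36 members without wildtype array 2. Its signal was 253, 2366, 291 and 268 on wildtype arrays 1 to 4, 694, 522, 578 and 686 on vehicle arrays 1 to 4, and 383, 236, 420.4 and 193 on ceftriaxone arrays 1 to 4. The vehicle arrays did not overlap wildtype arrays 1, 3 and 4, and ceftriaxone arrays 2 and 4 lay below all of these. Mcm6 differed by 0.38 ± 0.56 (limma adjusted p = 0.602) with all arrays and by 1.14 ± 0.22 (adjusted p = 0.000576) without wildtype array 2, and its other probe set gave 1.27. Mcm7, a neighbouring subunit of the ring, had signals of 637, 4507, 648 and 586 on wildtype arrays 1 to 4, 929, 1076, 927 and 1093 on vehicle arrays 1 to 4, and 892, 634, 759 and 581 on ceftriaxone arrays 1 to 4. All 4 vehicle arrays were above wildtype arrays 1, 3 and 4. The difference of Mcm7 was −0.03 ± 0.49 (adjusted p = 0.965) and 0.67 ± 0.13 (adjusted p = 0.000534) in the fits with and without that array. Of its other 3 probe sets, 1 gave −0.07 and did not pass, while the other two gave 0.58 and 0.60 and did.

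Mcm5 showed the same order of groups, with signals of 124, 1145, 141 and 121 on wildtype arrays 1 to 4, 269.9, 289.5, 233 and 273 on vehicle arrays 1 to 4, and 205, 121, 235 and 91.4 on ceftriaxone arrays 1 to 4. It differed by 0.21 ± 0.56 (limma adjusted p = 0.778) with all arrays and by 0.96 ± 0.24 (adjusted p = 0.00361) without wildtype array 2. Pcna encodes the sliding clamp of DNA polymerases, and its difference was small and its arrays tightly grouped. Its signal was 3422, 9797, 3335 and 3453 on wildtype arrays 1 to 4, 3924, 3933, 3821 and 3907 on vehicle arrays 1 to 4, and 3732, 3368, 3758 and 3213 on ceftriaxone arrays 1 to 4. The difference of −0.19 ± 0.27 (adjusted p = 0.592) became 0.19 ± 0.06 (adjusted p = 0.0135) once wildtype array 2 was left out.

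The 3 other helicase subunits did not pass in either fit. Mcm2 had signals of 525, 680.2, 465 and 558 on wildtype arrays 1 to 4, 481, 423, 312 and 380.0 on vehicle arrays 1 to 4, and 551, 448, 381 and 259 on ceftriaxone arrays 1 to 4. Its vehicle arrays reached below the wildtype arrays and overlapped them, with a difference of −0.47 ± 0.20 (limma adjusted p = 0.0704) with all arrays and −0.37 ± 0.20 (adjusted p = 0.134) without wildtype array 2. Its other probe set gave 0.24, so the probe sets of Mcm2 differ in sign. Mcm3 gave 0.36 ± 0.23 (adjusted p = 0.199) and Mcm4 0.18 ± 0.15 (adjusted p = 0.316) without wildtype array 2.

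Both tested members of the nucleotide supply class rose without wildtype array 2, against 31.0% of all tested probe sets. The class median was 0.58 in that fit and −0.02 with all arrays, where 0 were called. Rrm1, the large subunit of ribonucleotide reductase, had signals of 465, 1979, 455 and 439 on wildtype arrays 1 to 4, 684, 678, 635 and 736 on vehicle arrays 1 to 4, and 492, 517, 606 and 444 on ceftriaxone arrays 1 to 4. No vehicle array overlapped wildtype arrays 1, 3 and 4. Its difference was 0.05 ± 0.37 (limma adjusted p = 0.918) with all arrays and 0.58 ± 0.10 (adjusted p = 0.000235) without wildtype array 2, and its other probe set gave 0.35 and did not pass. Rrm2, the small subunit, whose supply limits the enzyme in S phase, had signals of 369, 5395, 466 and 372 on wildtype arrays 1 to 4, 767, 802, 588 and 713 on vehicle arrays 1 to 4, and 698, 275, 579 and 333 on ceftriaxone arrays 1 to 4. Here too the vehicle arrays stood clear of 3 of the wildtype arrays, and the difference moved from −0.12 ± 0.67 (adjusted p = 0.9) to 0.81 ± 0.25 (adjusted p = 0.0148). Its other probe sets gave 0.88 and 0.93, both called. Leaving out wildtype array 4 as well ended the call of the brightest one (adjusted p = 0.0513). Tyms, thymidylate synthase, lay below the filter, with signals from 2 to 47.2 on all arrays and no call. A further probe set that names Tyms carries several symbols and was not used.

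In the S to M class, 3 of 4 tested members rose without wildtype array 2, against 31.0% of all tested probe sets. The median was 0.62 in that fit and −0.19 with all arrays, where 0 of 4 were called. Cdk1, the kinase that starts mitosis, had signals of 179, 1569, 219.8 and 122 on wildtype arrays 1 to 4, 329.7, 328, 263 and 311 on vehicle arrays 1 to 4, and 309.7, 158, 278 and 152 on ceftriaxone arrays 1 to 4. All vehicle arrays were above wildtype arrays 1, 3 and 4, which were themselves spread widely. Cdk1 differed by 0.03 ± 0.57 (limma adjusted p = 0.976) with all arrays and by 0.80 ± 0.24 (adjusted p = 0.0117) without wildtype array 2; leaving out wildtype array 4 as well gave an adjusted p of 0.069. Cks2, a small protein that binds Cdk1, had signals of 277, 2790.2, 259.8 and 263 on wildtype arrays 1 to 4, 500.4, 505, 368 and 464 on vehicle arrays 1 to 4, and 411, 168, 344 and 243 on ceftriaxone arrays 1 to 4. The vehicle arrays did not overlap wildtype arrays 1, 3 and 4, and the difference was −0.09 ± 0.60 (adjusted p = 0.917) and then 0.74 ± 0.23 (adjusted p = 0.0127). Its other probe set gave 0.42 and did not pass.

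Ccnb2, a mitotic B cyclin, moved from −0.37 ± 0.62 (limma adjusted p = 0.651) to 0.50 ± 0.19 (adjusted p = 0.0347) without wildtype array 2. Its vehicle signals were 210, 193, 138 and 168 and its wildtype signals without array 2 were 109, 134 and 115. The Ccnb2 call was lost in 6 of 22 alternative settings: with no filter and when wildtype array 1 or 4 or vehicle array 1, 2 or 4 was left out as well (adjusted p up to 0.103). Ccna2, the A cyclin of S phase and G2, had signals of 243, 1809.9, 258 and 257 on wildtype arrays 1 to 4, 333, 339, 269 and 426 on vehicle arrays 1 to 4, and 323, 165, 277 and 204 on ceftriaxone arrays 1 to 4. Its vehicle arrays lay above 3 of the wildtype arrays. Yet the difference was −0.29 ± 0.50 (limma adjusted p = 0.659) with all arrays and 0.40 ± 0.19 (adjusted p = 0.0962) without wildtype array 2, and did not pass. In the second fit its other probe set gave 0.57 and did.

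**Figure D3:**
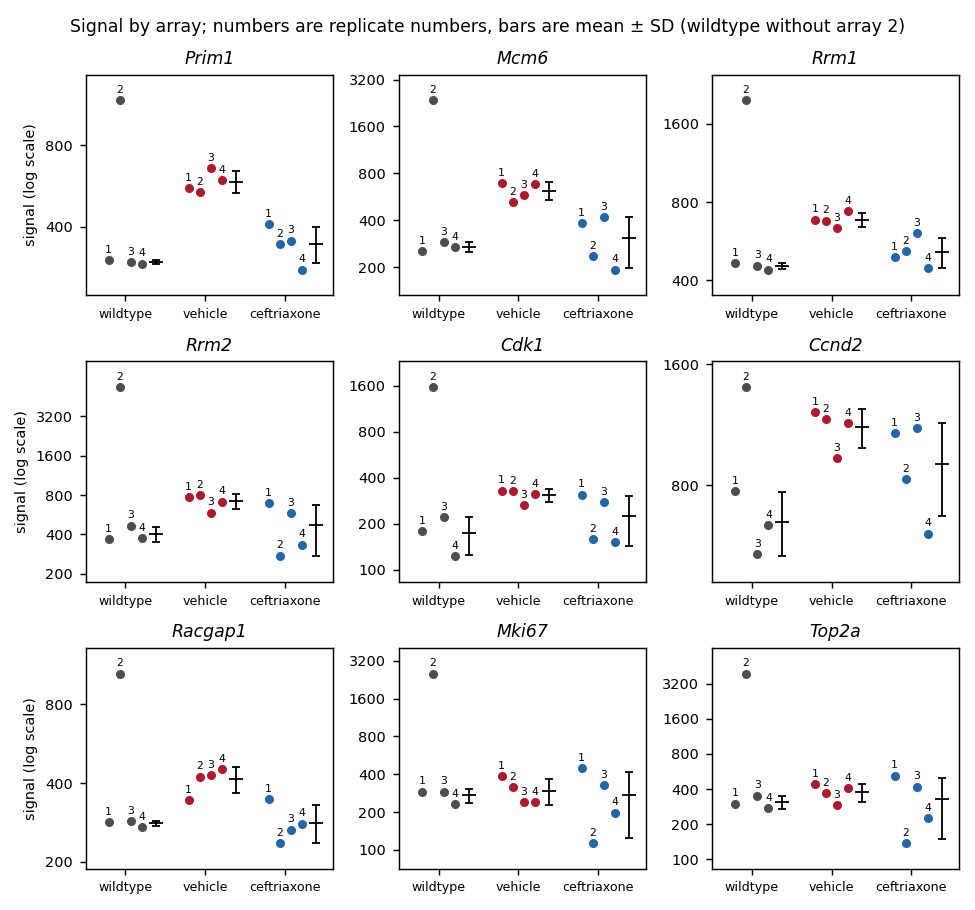
Signal on a log axis for 9 genes by group, each point 1 array with its replicate number, and the bars the mean and SD of the group (wildtype without array 2). The vehicle arrays lie above wildtype arrays 1, 3 and 4 without overlap for the first 7 genes and overlap them for Mki67 and Top2a.

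Of the G1 cyclins and kinases, 2 of 6 rose without wildtype array 2, a share of 33.3% that is near the background of 31.0%. The class median was 0.06 in that fit and −0.18 with all arrays, where 0 of 6 were called. Ccnd2, a D cyclin that pairs with Cdk4 and Cdk6, had signals of 774, 1407, 539.7 and 635 on wildtype arrays 1 to 4, 1215, 1171, 933 and 1144 on vehicle arrays 1 to 4, and 1081, 827, 1109 and 607 on ceftriaxone arrays 1 to 4. The vehicle arrays lay above the other 3 wildtype arrays, and the second wildtype array was above them. Its difference was 0.50 ± 0.26 (limma adjusted p = 0.129) with all arrays and 0.77 ± 0.19 (adjusted p = 0.00312) without wildtype array 2, and all 7 of its probe sets gave positive differences in the second fit, from 0.47 to 1.4. Cdk2, the kinase of the E and A cyclins, had signals of 164, 801, 165 and 148 on wildtype arrays 1 to 4, 255, 193, 193 and 214 on vehicle arrays 1 to 4, and 202, 188, 231 and 152 on ceftriaxone arrays 1 to 4. Its difference changed from −0.17 ± 0.40 (adjusted p = 0.753) to 0.39 ± 0.14 (adjusted p = 0.031). The Cdk2 call was lost in 6 of 22 alternatives, with no filter and when wildtype array 1, 3 or 4 or vehicle array 1 or 4 was left out as well (adjusted p up to 0.102).

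Ccnd1, the other D cyclin, was the member least affected by wildtype array 2. Its signal was 926, 890.1, 1044 and 1023 on wildtype arrays 1 to 4, 1034, 947, 733 and 718 on vehicle arrays 1 to 4, and 1192, 989.5, 1425 and 808 on ceftriaxone arrays 1 to 4. The groups overlapped, and the difference was −0.19 ± 0.16 (limma adjusted p = 0.358) with all arrays and −0.23 ± 0.17 (adjusted p = 0.265) without that array. Cdk4, the kinase partner of the D cyclins, had signals of 1347, 1975, 1172 and 1246 on wildtype arrays 1 to 4, 1591, 1406, 1254 and 1311 on vehicle arrays 1 to 4, and 1405, 1209, 1324 and 1029.7 on ceftriaxone arrays 1 to 4. Its groups also overlapped, with a difference of −0.02 ± 0.15 (adjusted p = 0.926) with all arrays and 0.14 ± 0.11 (adjusted p = 0.27) without wildtype array 2. The E cyclins, which open S phase with Cdk2, did not pass: without wildtype array 2 the difference was −0.18 ± 0.11 (adjusted p = 0.168) for Ccne1 and −0.01 ± 0.15 (adjusted p = 0.964) for Ccne2.

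In the mitotic class, 2 of 10 tested members rose without wildtype array 2 and 8 did not pass, a share of 20.0% called higher that is below the background of 31.0%. The median difference over its 15 measured members was 0.26 in that fit. With all arrays the median was −0.55, 14 of the 15 differences were negative and 0 were called. Mki67, the proliferation antigen that coats mitotic chromosomes, had signals of 291, 2521, 291 and 232 on wildtype arrays 1 to 4, 386, 316, 242 and 241 on vehicle arrays 1 to 4, and 447, 113, 329 and 198 on ceftriaxone arrays 1 to 4. Vehicle arrays 1 and 2 were above the wildtype arrays but the second, and vehicle arrays 3 and 4 fell within their range. The difference was −0.69 ± 0.62 (limma adjusted p = 0.382) with all arrays and 0.10 ± 0.33 (adjusted p = 0.809) without wildtype array 2. Top2a, the topoisomerase that untangles chromosomes in mitosis, had signals of 299.8, 3897, 351 and 276 on wildtype arrays 1 to 4, 441, 369.8, 289.6 and 408 on vehicle arrays 1 to 4, and 521, 137, 420.3 and 224 on ceftriaxone arrays 1 to 4. Vehicle array 3 fell within the range of wildtype arrays 1, 3 and 4 and the other vehicle arrays lay above it, with a difference of −0.63 ± 0.68 (adjusted p = 0.469) and 0.27 ± 0.33 (adjusted p = 0.511). The difference between the replication and the mitotic class was not tested.

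The 2 mitotic members called were Racgap1 and Mad2l1. Racgap1, a component of the central spindle needed for cytokinesis, had signals of 284, 1047, 286 and 273 on wildtype arrays 1 to 4, 345, 424, 429.6 and 453 on vehicle arrays 1 to 4, and 347, 236, 266 and 280.3 on ceftriaxone arrays 1 to 4. All vehicle arrays were above wildtype arrays 1, 3 and 4, and the difference went from 0.07 ± 0.33 (limma adjusted p = 0.889) to 0.53 ± 0.12 (adjusted p = 0.00289) without wildtype array 2. Its other probe set gave 0.90, also called. Mad2l1, a spindle checkpoint protein, had signals of 269, 1646, 268 and 238 on wildtype arrays 1 to 4, 397, 399, 321 and 305 on vehicle arrays 1 to 4, and 332, 249, 355 and 229 on ceftriaxone arrays 1 to 4. It too was higher on all vehicle arrays than on those 3 wildtype arrays, and the difference went from −0.22 ± 0.46 (adjusted p = 0.724) to 0.43 ± 0.15 (adjusted p = 0.0267). Leaving out wildtype array 4, vehicle array 1 or vehicle array 2 ended the Mad2l1 call (adjusted p up to 0.0942).

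Ube2c, the ubiquitin-conjugating enzyme of the anaphase-promoting complex, had signals of 304, 2567, 285 and 289 on wildtype arrays 1 to 4, 477, 590.3, 392 and 459 on vehicle arrays 1 to 4, and 452, 132, 456 and 249 on ceftriaxone arrays 1 to 4. Its vehicle arrays stood above 3 wildtype arrays, but the difference of 0.67 ± 0.32 without wildtype array 2 did not pass (limma adjusted p = 0.0859). With all arrays it was −0.10 ± 0.60 (adjusted p = 0.908). The other tested mitotic members were Cenpa, the centromeric histone (0.48 ± 0.24), Nusap1, a spindle microtubule protein (0.29 ± 0.24), Birc5 or survivin (0.21 ± 0.19), Cdc20, the activator of anaphase (0.10 ± 0.21), and Aurka, the spindle pole kinase (−0.13 ± 0.13), all with adjusted p from 0.111 to 0.683. Below the filter lay the kinases Aurkb, Bub1, Bub1b and Plk1 and the motor Kif11. Their differences without wildtype array 2 ran from 0.04 for Bub1 to 0.30 for Aurkb, and none passed when all probe sets were tested.

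The second comparison, SMA ceftriaxone against SMA vehicle, asks how the treatment goes with these genes in mutant cords. Neither group holds wildtype array 2, so the differences are the same in both fits, and that array acts through the shared estimate of the spread. With all 12 arrays, 0 of 30 tested members were called by limma and 0 had an unadjusted p under 0.05, while 18.3% of probe sets were called higher and 17.7% lower. In the fit that leaves it out, 10 of 30 members were called lower in ceftriaxone cords and 0 higher, against a background of 25.6% lower and 24.5% higher. A fit of only these 2 groups, which uses no wildtype array, called 8 lower, and its share over all probe sets is not given here. The median difference over the 36 members was −0.28, beside 0.022 over all probe sets, and 30 members had a negative difference. Without ceftriaxone array 2 that median was −0.13. In 5 members, all ceftriaxone arrays lay below all vehicle arrays, against 16.2% of all probe sets.

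Of the replication class 5 of 8 fell without wildtype array 2, against 25.6% of all tested probe sets called lower. These were Prim1 by 0.74 ± 0.11, Mcm6 by 1.03 ± 0.20, Mcm7 by 0.50 ± 0.12, Mcm5 by 0.74 ± 0.22 and Pcna by 0.15 ± 0.06 on the log2 scale. Their limma adjusted p were 0.000118, 0.00101, 0.00359, 0.0139 and 0.0382, and 0.112, 0.167, 0.461, 0.324 and 0.692 with all arrays. Prim1, Mcm6, Mcm7 and Pcna did not overlap between the 2 SMA groups. In Mcm5 ceftriaxone array 3 lay just above the lowest vehicle array. The other probe sets of Prim1 (−0.70) and Mcm6 (−0.91) were also called lower. Of the others of Mcm7, those at −0.41 and −0.43 were called, and 1 gave 0.06 and did not pass. The Pcna call was lost in 11 of 23 alternatives, among them leaving out any 1 vehicle array or ceftriaxone array 2 or 4 (adjusted p up to 0.111). Mcm2 gave 0.00 ± 0.19, Mcm3 −0.42 ± 0.21 and Mcm4 0.07 ± 0.14, and none of these 3 passed on its brightest probe set. Another Mcm3 probe set, below the filter, gave −0.64 and was called lower over all probe sets (limma adjusted p = 0.0297).

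Both subunits of ribonucleotide reductase fell without wildtype array 2, against 25.6% of all tested probe sets called lower. Rrm1 fell by 0.41 ± 0.09 (limma adjusted p = 0.00242, and 0.415 with all arrays) and Rrm2 by 0.68 ± 0.23 (adjusted p = 0.0289, and 0.458). The other probe set of Rrm1 gave −0.24 and did not pass, while the others of Rrm2 gave −0.88 and −0.97 and did. On its brightest probe set Rrm1 did not overlap between the SMA groups. Rrm2 did, since ceftriaxone array 1 lay among the vehicle arrays, and its call was lost when vehicle array 1, 2 or 4 or ceftriaxone array 2 or 4 was left out (adjusted p up to 0.0866). Ceftriaxone arrays 2 and 4 of Rrm2 were below all vehicle arrays and below the 3 lower wildtype arrays.

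In the S to M class Cks2 fell by 0.69 ± 0.21 (limma adjusted p = 0.0148, and 0.394 with all arrays) and Ccna2 by 0.49 ± 0.18 (adjusted p = 0.0362, and 0.471). The other probe set of Cks2 gave −0.46 and did not pass, and that of Ccna2 gave −0.66 and did. The Ccna2 call was lost in 7 of 22 alternatives, among them the omission of any of the same 5 arrays (adjusted p up to 0.111). Cdk1 gave −0.49 ± 0.22 (adjusted p = 0.0822) and Ccnb2 −0.27 ± 0.17 (adjusted p = 0.206), and neither passed. Racgap1 was the 1 mitotic member called, and fell by 0.53 ± 0.12 (adjusted p = 0.00218, and 0.236 with all arrays). Its other probe set gave −0.71, also called. Ube2c was −0.69 ± 0.29 (adjusted p = 0.0678), Mki67 −0.25 ± 0.31 (adjusted p = 0.521) and Top2a −0.35 ± 0.31 (adjusted p = 0.359).

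None of the 6 G1 members passed in this comparison on its brightest probe set. Another Ccnd2 probe set, below the filter, gave −0.67 and was called lower over all probe sets (limma adjusted p = 0.0337). Ccnd1 was 0.34 ± 0.16 (limma adjusted p = 0.0872 without wildtype array 2) and Ccnd2 −0.33 ± 0.17 (adjusted p = 0.13), so the 2 D cyclins had opposite signs. Cdk4 gave −0.16 ± 0.10, Cdk2 −0.14 ± 0.13, Ccne1 −0.04 ± 0.10 and Ccne2 0.14 ± 0.14.

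The third comparison, SMA ceftriaxone against wildtype, asks whether treated mutant cords differ from controls. With all 12 arrays, 0 of 30 members were called by limma, 2 had an unadjusted p under 0.05, and the median difference over the 36 members was −0.61. The background was 3.29% of probe sets called higher and 0.928% lower. Without wildtype array 2, 0 of 30 were called, 1 had an unadjusted p under 0.05, and the median was 0.05 (between −0.10 and 0.20 when a further array was left out), against 6.3% of probe sets called higher and 4.28% lower. No member had groups that did not overlap in either fit. Over all probe sets the groups stood apart, higher and lower, in 5.96% and 3.04% with all arrays and in 10.1% and 7.81% without wildtype array 2. In the fit without wildtype array 2, Prim1 was 0.20 ± 0.12 (limma adjusted p = 0.283), Mcm6 0.11 ± 0.22 (adjusted p = 0.778), Rrm1 0.17 ± 0.10 (adjusted p = 0.279) and Ccnd2 0.45 ± 0.19 (adjusted p = 0.141). Another Ccnd2 probe set, below the filter, gave 1.07 and was called higher over all probe sets (limma adjusted p = 0.0243). Further ones, among them those at 0.52 and −0.03, did not pass. The 3 comparisons share arrays in pairs, so their values are not independent of each other.

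**Figure D4:**
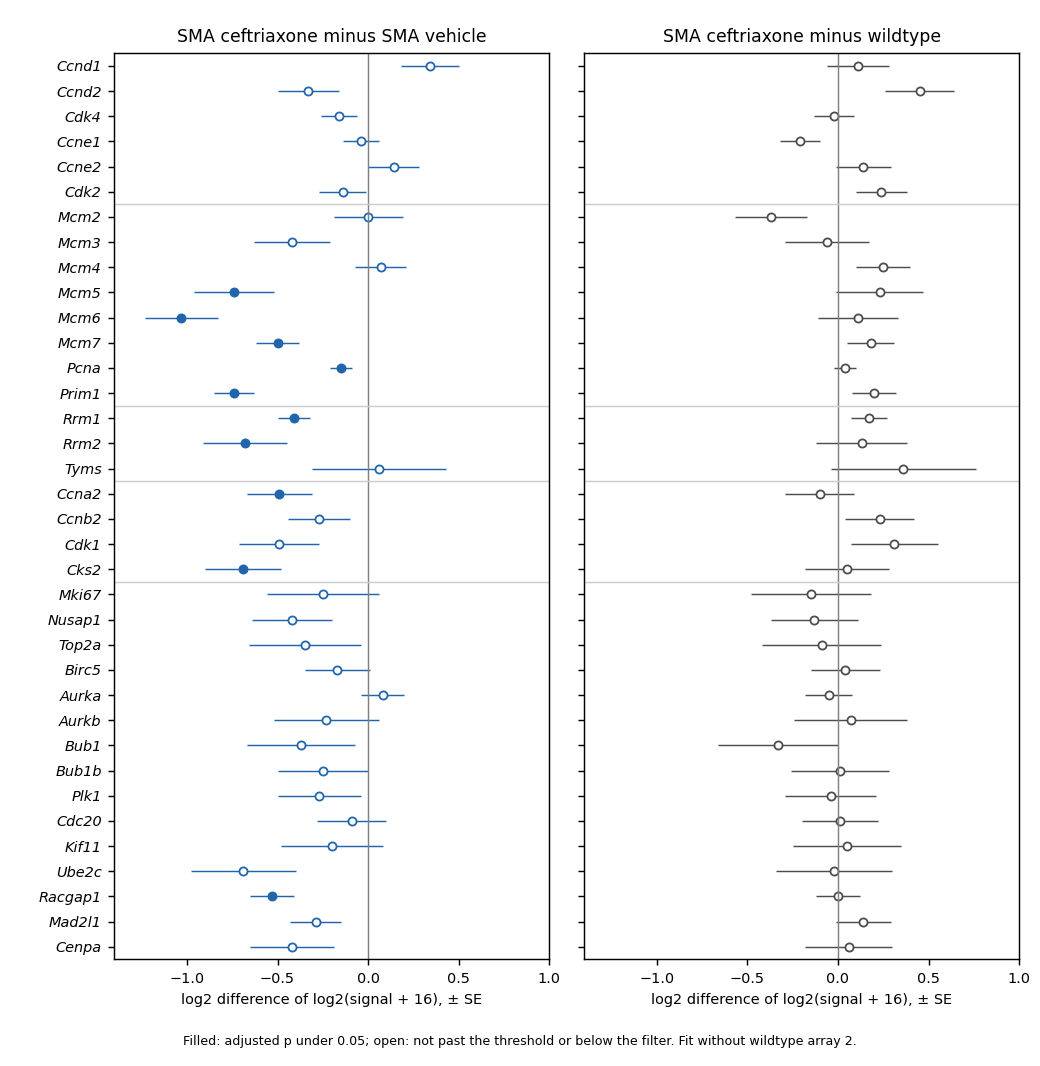
Log2 differences with standard errors for the 36 measured genes without wildtype array 2: ceftriaxone minus vehicle in SMA cords (left) and SMA ceftriaxone minus wildtype (right). On the left 10 genes have an adjusted p under 0.05 (filled), all below 0; on the right none does and the values scatter around 0.

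The ceftriaxone mice were not alike. Relative to the mean of wildtype arrays 1, 3 and 4, the median over the 36 members was 0.44 on ceftriaxone array 1, −0.27 on array 2, 0.37 on array 3 and −0.21 on array 4. All 36 members lay above that mean on array 1 and 33 on array 3, but 7 on array 2 and 2 on array 4. On vehicle arrays 1 to 4 the medians were 0.47, 0.35, 0.16 and 0.40. Top2a shows the split, with ceftriaxone arrays 1 and 3 at 521 and 420 and arrays 2 and 4 at 137 and 224. Arrays 1 and 3 were both above arrays 2 and 4 in 31 of 36 members, an ordering that 23.7% of tested probe sets had; the split was chosen after the values were seen.

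Markers of cell types that can divide moved with the groups, and their part in the members' differences was not tested. Of 8 neural progenitor markers with a probe set, 7 passed the filter and Nes did not. Without wildtype array 2, 6 of them rose in SMA vehicle cords against wildtype, Fabp7 (0.64 ± 0.14) and Hes5 (0.63 ± 0.16) among them, and Prom1 was lower. The background was 31.0% of tested probe sets called higher and 27.5% called lower. The summed signal of the list was 12610 to 13897 on wildtype arrays 1, 3 and 4, 9911 on wildtype array 2 and 17363 to 18728 on vehicle arrays. Fabp7 alone gave 8453 to 9622, 6959 and 12789 to 14486 of these sums, so they chiefly follow that gene. On ceftriaxone arrays 1 to 4 it was 16647, 12840, 14931 and 11784, so in the sum arrays 1 and 3 were again above arrays 2 and 4. Most of that sum was Fabp7, at 12288, 7698, 10620 and 7711 on these arrays. Nes had the same order, Sox9, Pax6 and Prom1 had the reverse, and the rest were mixed.

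Of 7 oligodendrocyte precursor and lineage markers, Pdgfra (0.38) and Ptprz1 (0.49) were higher in SMA vehicle cords without wildtype array 2 and 5 were lower. The background in that fit was 31.0% of tested probe sets called higher and 27.5% called lower. Their summed signal was 19272 to 20891 on wildtype arrays 1, 3 and 4, 12005 to 15132 on vehicle arrays and 19624 to 21739 on ceftriaxone arrays. Olig1 alone gave 9818 to 12017, 5068 to 6883 and 8740 to 10836 of these sums. With ceftriaxone against vehicle, 5 of the 7 were higher and 0 lower (median 0.53), against 24.5% and 25.6% of all probe sets. Microglia markers were lower in 5 of 8 tested and endothelial markers in 6 of 7, against 27.5% of all probe sets. With ceftriaxone against vehicle, 5 of 8 microglia markers (median 0.53) and 5 of 7 endothelial markers (median 0.46) were higher, against 24.5% of all probe sets. Skeletal muscle transcripts, foreign to the cord, summed to 2437 to 5866 on vehicle arrays, 718 to 1744 on wildtype arrays 1, 3 and 4 and 312 to 840 on ceftriaxone arrays. Spinal cord markers summed to 48665 to 59411 on vehicle arrays, 78000.1 to 91209 on wildtype arrays 1, 3 and 4, 59787 on wildtype array 2 and 74269 to 78113 on ceftriaxone arrays, and 6 of 9 tested were lower and 2 higher in vehicle cords. Schwann cell markers summed to 1549 to 5871 on vehicle arrays, 8255 to 12966 on wildtype arrays 1, 3 and 4 and 5686 to 10961 on ceftriaxone arrays, and both tested were lower in vehicle cords. Xist, transcribed from the inactive X chromosome, had a signal of 1689 to 2344 on wildtype array 3, vehicle arrays 1 and 4 and all ceftriaxone arrays, and of 20.9 to 74.2 on the others.

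A wider list of 111 other cell cycle genes, of which 99 had a probe set with 1 symbol, was read in the same fits. With all arrays, 5 of 63 tested genes were called higher and 7 lower in SMA vehicle against wildtype. The median difference was −0.25, and the background was 24.9% higher and 22.3% lower. Without wildtype array 2, 21 of 61 were called higher and 10 lower, with a median difference of 0.17 and a background of 31.0% and 27.5%. The 4 of smallest p among the higher genes were Cdkn1a, the p21 inhibitor of cyclin-dependent kinases (2.07 ± 0.14, limma adjusted p = 2.97e-07), Rfc3, a subunit of the clamp loader (1.5 ± 0.12), Cdt1, the licensing factor that loads the MCM ring (1.16 ± 0.11), and Cdkn2d, an inhibitor of Cdk4 and Cdk6 (0.67 ± 0.07). Those among the lower genes were Wee1, the kinase that restrains Cdk1 (−0.89 ± 0.10), Orc2 of the origin recognition complex (−0.54 ± 0.10), Rpa1 of the single-strand binding protein (−0.32 ± 0.08) and Mad1l1, a partner of Mad2l1 (−0.92 ± 0.24). Other licensing and fork genes gave 10 higher and 5 lower of 25 tested, and other mitosis genes 5 higher and 1 lower of 16. Both counts stand beside the same background of 31.0% and 27.5%.

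Between the SMA groups, 8 of the 61 were called higher and 14 lower with ceftriaxone, again without wildtype array 2, where the background was 24.5% higher and 25.6% lower. With all arrays 5 and 4 of 63 were, against 18.3% and 17.7%. The higher genes of smallest p were Wee1 (0.82 ± 0.09), Rpa1 (0.38 ± 0.07), Mad1l1 (1.11 ± 0.22) and Rbl2, a pocket protein related to the retinoblastoma protein (0.44 ± 0.09). The lower ones were Rfc3 (−1.12 ± 0.11), Cdc7, the kinase that fires origins (−0.92 ± 0.11), Cdkn2d (−0.42 ± 0.06) and Dnmt1, the maintenance DNA methyltransferase (−0.66 ± 0.10). In SMA ceftriaxone against wildtype, 5 were called higher and 0 lower without wildtype array 2, and 1 and 0 with all arrays. The background, higher and lower, was 6.3% and 4.28% without that array and 3.29% and 0.928% with all arrays. Cdkn1a was 2.15 ± 0.14 (limma adjusted p = 6.04e-06), and Cdt1 (0.63), Spc25 of the kinetochore (0.67), Kif22, a chromosome motor (0.53), and Cdkn2d (0.25) were the others. With all arrays Cdkn1a was also called, at 2.12 for SMA vehicle and 2.21 for SMA ceftriaxone against wildtype.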

How the data were processed

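Spinal cord RNA of 12 mice was measured on 1 array each. Per the submitters' processing notes, MAS5 made the deposited values, which are a linear signal intensity for each probe set; no version is given in the sources used here. The authors had scaled the arrays alike: leaving off the outer 2% at each end, the mean lay between 700.2 and 700.3 on every array, as checked on the deposited intensity values. Of 22690 probe sets, 64 controls were removed, which left 22626. In the platform annotation of 2016, 20393 have 1 symbol, 691 several and 1606 none, and 20364 were matched by gene identifier. No detection calls were used, so no probe set is called absent.

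An offset of 16 was added before log2, which understates differences of dim genes. Group means were fitted (lmFit, then eBayes with trend, two-sided; limma 3.58.1, R 4.3.3) on the 13575 probe sets above the 40th percentile of mean log2 signal, with Benjamini-Hochberg adjustment over all of them and a threshold of 0.05. Members below the filter come from the same fit over all probe sets. The fit without wildtype array 2 repeats filter and adjustment. The precision is limited by the number of arrays, 4 a group; the median standard error of a log2 difference was 0.12, and 0.10 without that array. The p-values measure the spread between these mice.

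The members and all lists, motifs and tests were chosen with earlier results of these data known. Arrays are named by group and replicate number. By the naming rule, values by array are printed for Mki67, Top2a, Ccnd1, Ccnd2, Cdk4, Cdk1, Mcm2 and Pcna and for the 2 members of smallest p without wildtype array 2 in each role class and each of the first 2 comparisons. Members whose call depends on that array are named with both values. Of the other cell cycle genes, the 4 of smallest p each way were named. Replicate numbers did not pair the arrays: correlations of same-numbered arrays' deviations ran from −0.143 to 0.133. On simulated data with 13575 probe sets, the fit without wildtype array 2 found 41 of 67 changes of 0.5 (log2), 63 of 67 of 1 and 65 of 66 of 2 for SMA vehicle against wildtype, with 5 false calls. The same fit made 11 false calls for ceftriaxone against vehicle and 13 for ceftriaxone against wildtype. No other probe sets were changed in the simulation. In the data, that fit called 31.0% higher and 27.5% lower for SMA vehicle against wildtype, so these rates need not carry over. Alternatives are named in the closing section; those joined with leaving out wildtype array 2 were, except the replicate block and the Xist covariate, added after the data were seen. Figures were drawn with matplotlib 3.10.9.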

Additional observations from a re-analysis of the deposited data

Results flagged for a closer look

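Within groups of 4 arrays, 108 sets of values (36 genes in 3 groups) were screened for an array that stood apart, by the gap to its nearest neighbour as a share of the group's range; chance alone marks about 1 set in 20. In 29 of 108 sets an array stood apart, and in 28 of these it was wildtype array 2, as the highest. Among G1 and replication genes its gap share was 0.936 for Cdk2, 0.954 for Mcm3, 0.892 for Mcm4, 0.937 for Mcm5, 0.939 for Mcm6, 0.952 for Mcm7, 0.968 for Pcna and 0.978 for Prim1. Among genes of nucleotide supply and of the S to M class it was 0.963 for Rrm1, 0.915 for Rrm2, 0.971 for Ccna2, 0.926 for Ccnb2 and 0.974 for Cks2. Among mitotic genes it was 0.908 for Mki67, 0.925 for Nusap1, 0.912 for Top2a, 0.963 for Birc5, 0.899 for Aurka, 0.927 for Aurkb and 0.855 for Bub1. The remaining mitotic genes gave 0.857 for Bub1b, 0.864 for Plk1, 0.931 for Cdc20, 0.859 for Kif11, 0.97 for Ube2c, 0.966 for Racgap1, 0.938 for Mad2l1 and 0.907 for Cenpa. Thymocyte markers were high on the same array, and their part in these values was not tested. The other set was Cenpa on SMA vehicle arrays, where array 1 was highest (gap share 0.952), with a signal of 245 against 202 to 204 on the other three.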

How the results depend on the processing

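Settings tried were other offsets (1 and 64), median centring or quantile normalization, the filter dropped or set at the 60th percentile, no trend, array quality weights, only the 2 groups compared, a replicate block, an Xist covariate, means of or counts over all probe sets, and each array left out. The counts below are of members or their probe sets. The share of all probe sets called in each setting is not given, so they have no background beside them. With all arrays, array quality weights called 8 members higher and 1 lower in SMA vehicle against wildtype. In ceftriaxone against vehicle they called 1 higher and 7 lower. Only the 2 groups compared gave 1 lower in the first comparison and 8 lower in the second. The replicate block gave 1 lower in the first comparison. Leaving out single arrays gave 0 to 14 higher and 0 to 1 lower in the first comparison, and 0 to 1 higher and 0 to 10 lower in the second; the 14 and the 10 are without wildtype array 2. Those omissions moved the first difference of Cdk2 between −0.39 and 0.39, Mcm7 between −0.30 and 0.67 (0.61 with array weights), Pcna between −0.32 and 0.19, Rrm2 between −0.46 and 0.81, Ccnb2 between −0.70 and 0.50, Cks2 between −0.38 and 0.74 and Mad2l1 between −0.47 and 0.43; the positive ends are without wildtype array 2. With wildtype array 2 left out, the 60th percentile filter left 11 members tested and called 6 higher in the first comparison and 5 lower in the second. Counting every probe set gave, of 51 tested, 24 higher in the first comparison and 19 lower in the second. Only the 2 groups compared gave 19 higher and 1 lower in the first comparison, and array weights 1 higher in the second. The replicate block moved the first median from 0.30 to 0.41, with 14 higher; it called 9 lower in the second comparison. Leaving out a further array gave 9 to 15 higher and 0 to 1 lower in the first comparison, 0 to 1 higher and 7 to 15 lower in the second and 0 to 1 higher in the third. With the Xist covariate, 14 were higher in the first comparison and 9 lower in the second. Under quantile normalization and median centring the counts were 14 higher in the first comparison and 10 lower in the second, as without them. Except where a filter or fewer samples set the number tested, the cause of these changes was not tested.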
